A study of Rattus norvegicus with 24 samples.

Results

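Genes of cerebellar neurons were followed array by array in RNA labelled as rat midbrain. The members are 9 named genes, of which 4 mark Purkinje cells (Pcp2, Car8, Calb1 and Pvalb) and 5 mark granule cells (Gabra6, Cbln1, Cbln3, Neurod1 and Zic1). They were selected on measured values, namely on high signals on array OVX-1 as set against the other OVX arrays, so their levels on that array are given as a description with no test. Probe sets were taken where the array's annotation gives a member as the only gene symbol, which yielded 10 probe sets for 8 of the 9 genes, out of 14218 genes with a probe set of their own. Gabra6 and Cbln1 have 2 probe sets each, and Cbln3 was not analysed here. A probe set was tested if it reached the 20th percentile of its array in at least 3 of the 24 arrays, as 27035 of 31099 probe sets did. Of the 10 member probe sets, 9 passed, and the second Gabra6 probe set reached that level on 2 arrays only.

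The 24 arrays fall into 4 sets of 6, each with 3 arrays of paced mated and 3 of chamber-exposed females. OVX/ADX rats had lost ovaries and adrenals, and OVX rats their ovaries; these were primed with 10 μg estradiol benzoate and tested 44 h later, at 10 days after surgery. The 2 remaining sets come from gonadally intact proestrous rats, and are called Intact-named and number-named here after the titles of their arrays. All were Long-Evans females 50 to 60 days old, and the study's methods describe 6 intact rats although 12 arrays carry that label, so it is not known whether the 2 intact sets are separate animals. The values are log2 signals that were normalized in 3 runs, shown by lowest signals per array of 3.38 to 3.43 for OVX/ADX, of 2.30 to 2.39 for OVX together with Intact-named, and of 3.58 to 3.65 for number-named. Levels from different runs are therefore set side by side as percentiles within each array, with no test. The tissue label was checked against regional markers. Th, the rate-limiting enzyme of dopamine synthesis and a defining marker of midbrain dopamine neurons, lay between the 82.2nd and the 94.3rd percentile on OVX/ADX arrays and between the 30.2nd and the 71.2nd on OVX arrays, against the 29.8th to 51.4th on Intact-named arrays and the 86.8th to 96.9th on number-named arrays. A list of 10 measured cortex and hippocampus genes had a median percentile of 43.9 to 54.5 on OVX/ADX arrays and 84.0 to 89.5 on OVX arrays, against 87.0 to 90.7 on Intact-named arrays and 46.5 to 72.0 on number-named arrays. In whole tissue, fewer cells of a type and less RNA per cell cannot be told apart.

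Purkinje cells are the output neurons of the cerebellar cortex, and granule cells, the most numerous neurons of the brain, excite them through parallel fibers. Granule cells release cerebellins, of which Cbln1 bridges presynaptic neurexins and the GluD2 receptor on Purkinje cells and so holds the synapse together. Pcp2 encodes a modulator of G protein signaling that is nearly confined to Purkinje cells and retinal bipolar cells, and Gabra6 encodes the alpha-6 subunit of the GABA-A receptor, found almost only in granule cells. The other members are less specific. Calb1 and Pvalb encode calcium buffers also made by neurons of other regions, Neurod1 is a transcription factor also made by granule cells of the dentate gyrus and by cortical neurons, and Cbln1 and Zic1 are also expressed outside the cerebellum.

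The RefSeq promoter table (build GRCr8, 250 bases before to 50 bases after a gene's start) holds 4 of the 8 measured members. Those of Pcp2 and Gabra6 are printed because, among the members, these genes had the largest excess on OVX-1 over the other OVX arrays. Both genes lie on the minus strand, Pcp2 at chr12:6481258-6481557 and Gabra6 at chr10:27327185-27327484, and capitals mark matches to AGGTCA, the half-site of nuclear receptors such as the Purkinje cell factor RORA, and to CANNTG, the E-box of helix-loop-helix factors such as NEUROD1. The letters were searched on both strands.
Pcp2: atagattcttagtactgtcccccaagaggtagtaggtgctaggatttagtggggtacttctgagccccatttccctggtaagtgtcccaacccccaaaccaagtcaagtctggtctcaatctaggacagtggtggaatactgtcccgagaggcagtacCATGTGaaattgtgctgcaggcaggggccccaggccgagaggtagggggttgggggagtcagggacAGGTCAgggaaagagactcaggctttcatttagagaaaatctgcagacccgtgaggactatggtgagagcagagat
Gabra6: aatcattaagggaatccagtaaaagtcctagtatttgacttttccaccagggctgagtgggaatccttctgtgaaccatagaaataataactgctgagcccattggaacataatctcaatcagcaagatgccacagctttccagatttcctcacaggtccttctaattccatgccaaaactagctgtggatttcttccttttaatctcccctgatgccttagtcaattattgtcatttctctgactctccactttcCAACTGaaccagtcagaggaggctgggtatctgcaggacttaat
AGGTCA occurs in the Pcp2 window, from 26 bases before the start that the window uses, and in 16.2% of the 33469 promoters of this length. It is absent from the Gabra6 window. In both genes the start used lies inside the annotated gene, so it is not the outermost start. Pcp2 is annotated at chr12:6479554-6481550 and Gabra6 at chr10:27311965-27327337. The AGGTCA match thus lies within the annotated Pcp2 gene. CANNTG occurs in both windows and in 72.1% of all promoters. No binding was measured, and the matches are a description of these letters only.

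Array OVX-1, from a paced mated OVX rat, stood apart from the rest in these genes. Pcp2 had a log2 signal of 10.35 on OVX-1, against 6.02 on OVX-2 and 5.25, 5.25, 5.30 and 5.39 on OVX-3 to OVX-6. On the 6 Intact-named arrays of the same run it lay between 4.95 and 5.35. On OVX-1, Pcp2 was thus 5.05 above the median of the other 5 OVX arrays, a 33.1-fold difference, and OVX-2 was the next highest array of the run. Gabra6 had 8.18 on OVX-1, against 4.94 on OVX-2, 4.48 to 4.58 on OVX-3 to OVX-6 and 4.11 to 4.45 on the Intact-named arrays. This was 3.69 above the median of the other 5 OVX arrays, and no fold is given because those lay under the 20th percentile of their arrays, at the 13.4th to 18.7th. Its second probe set had 10.31 on OVX-1, against 5.98 on OVX-2, 4.45 on OVX-3 and 3.11 to 4.16 on the others of the set, and at most 3.78 on Intact-named arrays. Besides OVX-1, the first Gabra6 probe set reached the 20th percentile of its array on the 6 number-named arrays and the second on OVX-2. OVX-1 and OVX-2 were the 2 highest OVX arrays for each of these 3 probe sets.

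**Figure D1:**
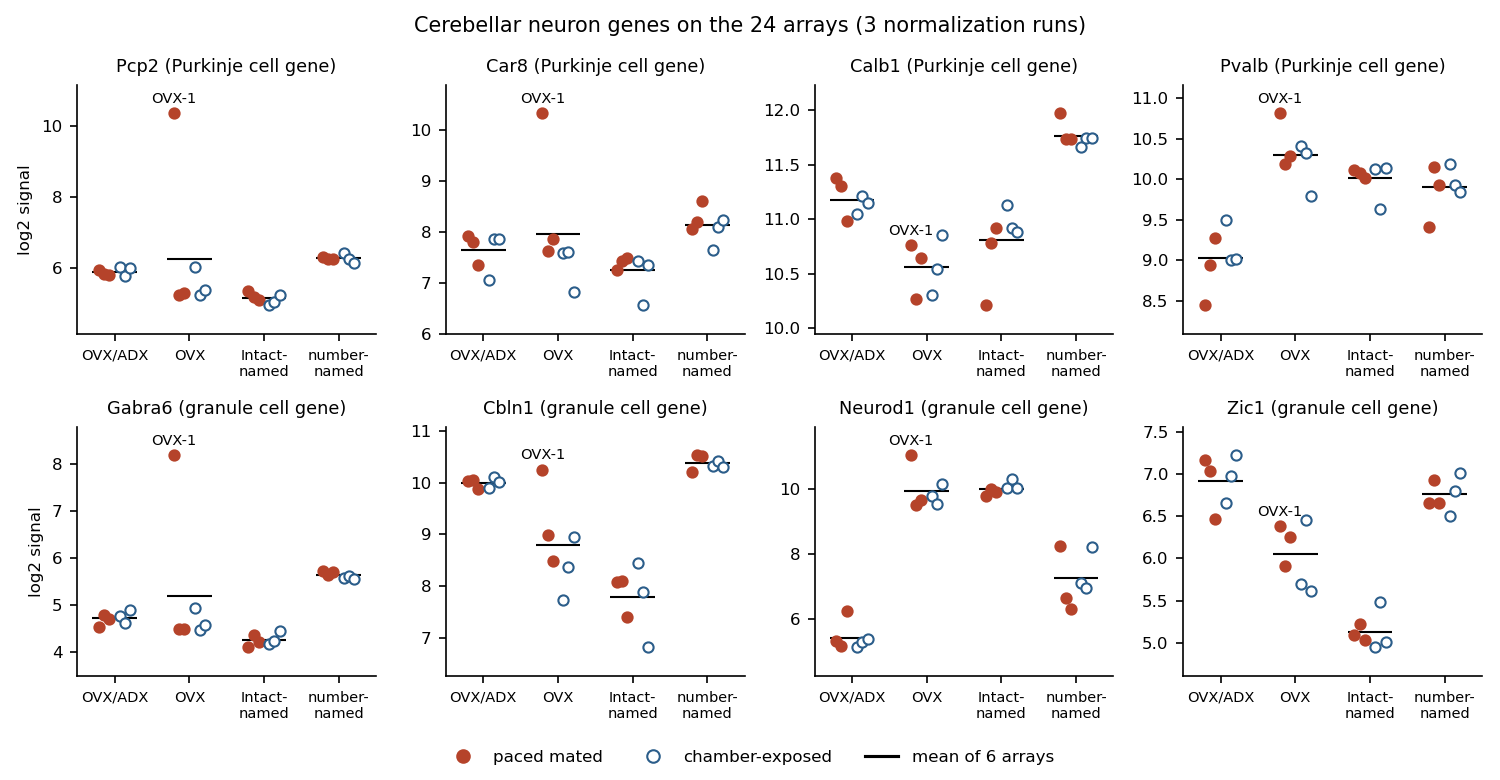
Log2 signal of the 8 measured members on each of 24 arrays, as points for arrays in sets OVX/ADX, OVX, Intact-named and number-named, with paced mated arrays filled, chamber-exposed arrays open and the mean of the 6 arrays drawn as a line. Pcp2 at 10.35, Car8 at 10.32 and Gabra6 at 8.18 on OVX-1 lie above the other 23 arrays, and sets from different runs are not on a common scale.

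Of the further Purkinje genes, Car8, which encodes a carbonic anhydrase relative that binds the IP3 receptor, was also highest on OVX-1. It had 10.32 on OVX-1, against 7.58, 7.62, 7.60, 7.85 and 6.81 on OVX-2 to OVX-6, a 6.59-fold difference from their median. The Intact-named arrays lay between 6.56 and 7.49. Pvalb, parvalbumin, was 10.81 on OVX-1, against 9.79 to 10.41 on the other OVX arrays, so OVX-1 was the highest by 0.41. Calb1, calbindin, was 10.76 on OVX-1 and inside the range of 10.27 to 10.85 of the other OVX arrays. Pcp2 and Car8 thus stood apart on OVX-1 by more than 1 on the log2 scale, and the calcium buffers Pvalb and Calb1 did not.

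Of the further granule cell genes, Cbln1 had 10.25 on OVX-1, against 7.74, 8.98, 8.38, 8.48 and 8.96 on OVX-2 to OVX-6, a difference of 1.77 from their median or 3.41-fold. Its second probe set gave 9.35 on OVX-1, against 6.76 to 7.64 on the other OVX arrays. Neurod1 had 11.05 on OVX-1, against 9.53 to 10.17 on the other OVX arrays, and was 0.88 above the highest of them. Zic1 had 6.38 on OVX-1, below the 6.46 on OVX-4. The granule genes Gabra6 and Cbln1 were on OVX-1 by more than 1 above all other OVX arrays, and Neurod1 and Zic1 were not.

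Counted together, 4 of the 8 members lay 1 or more above the highest of the other 5 OVX arrays on OVX-1. Across all 27035 probe sets tested, 42 did so, which is 0.155%. On no other of the 24 arrays did a member lie that far above the rest of its set. The median difference from the other 5 arrays of a set was 1.63 for the 4 Purkinje genes and 1.57 for the 4 granule genes on OVX-1, and −0.0014 over all probe sets tested. On the other 23 arrays these medians lay between −0.31 and 0.13 for the Purkinje genes and between −0.22 and 0.28 for the granule genes. Calb1 and Zic1 were both below the highest of the other OVX arrays on OVX-1. All these values chose the members or come from the same array, and no test was made of them.

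**Figure D2:**
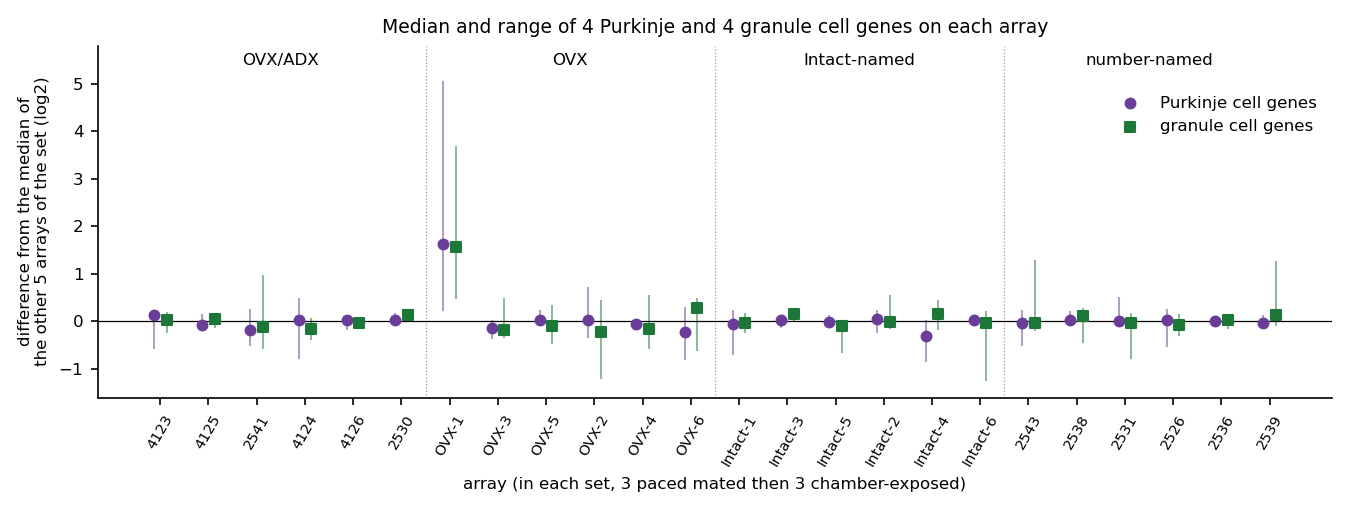
Difference of each array from the median of the other 5 arrays of its set, in log2 units, for 4 Purkinje cell genes (circles) and 4 granule cell genes (squares). Points are medians over the 4 genes and lines run from the lowest to the highest gene. The medians of 1.63 and 1.57 on OVX-1 stand above those of the other 23 arrays, which lie between −0.31 and 0.28.

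Other genes of the same cells were read from lists of Purkinje, granule, interneuron and glial genes. Of 11 measured further Purkinje genes, 2 lay 1 or more above all other OVX arrays on OVX-1, 5 were highest there, and the median difference was 0.21. Of all 27035 probe sets tested, 24.2% were highest on OVX-1 among the OVX arrays. The 2 Purkinje genes that lay 1 or more above were Slc1a6 and Ppp1r17. Slc1a6, the glutamate transporter of Purkinje cell spines, had 7.59 on OVX-1 against 5.89 to 6.41 on the other OVX arrays. Ppp1r17, a phosphatase inhibitor of Purkinje cells, had 7.59 against 5.63 to 6.20. The transcription factor gene Lhx1 had 6.33 on OVX-1 against 4.83 to 5.52 on the other OVX arrays. Signals of similar size were present on number-named arrays for Lhx1 and Ppp1r17, and on OVX/ADX arrays for Lhx1. Those runs are not on a common scale with OVX-1. Atp2a3, a calcium pump of the endoplasmic reticulum, was 0.92 above the median of the other OVX arrays. Rgs8 and Plcb4 differed by 0.16 and 0.21 and lay below the highest of the other OVX arrays, as did Itpr1, Pcp4, Homer3 and Cacna1a, which are also made in other neurons and differed by 0.0031, −0.25, −0.02 and −0.04.

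Of 13 measured further granule genes, 2 lay 1 or more above all other OVX arrays on OVX-1, 9 were highest there, and the median difference was 0.51. Over all probe sets tested, the share highest on OVX-1 was 24.2%, as given above. Fat2, an atypical cadherin of granule cell axons, had 8.59 on OVX-1 against 5.29 to 5.71 on the other OVX arrays and 5.14 to 5.38 on Intact-named arrays. En2, a homeobox gene of the midbrain and cerebellum, had 9.05 on OVX-1, 7.23 on OVX-2 and 5.54 to 5.94 on OVX-3 to OVX-6. Calb2, calretinin, was 1.24 above the median of the other OVX arrays and Barhl1 0.82. Neurod2 differed by −0.46, and Gabrd, which with Gabra6 forms extrasynaptic receptors, by −0.24. Among 8 measured interneuron and glial genes, Tfap2b, a transcription factor of cerebellar interneurons, had 8.98 on OVX-1 against 4.93 to 6.96 on the other OVX arrays. The other 7 differed by between −0.25 and 0.18, among them the Bergmann glia genes Slc1a3 and Gdf10.

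**Figure D3:**
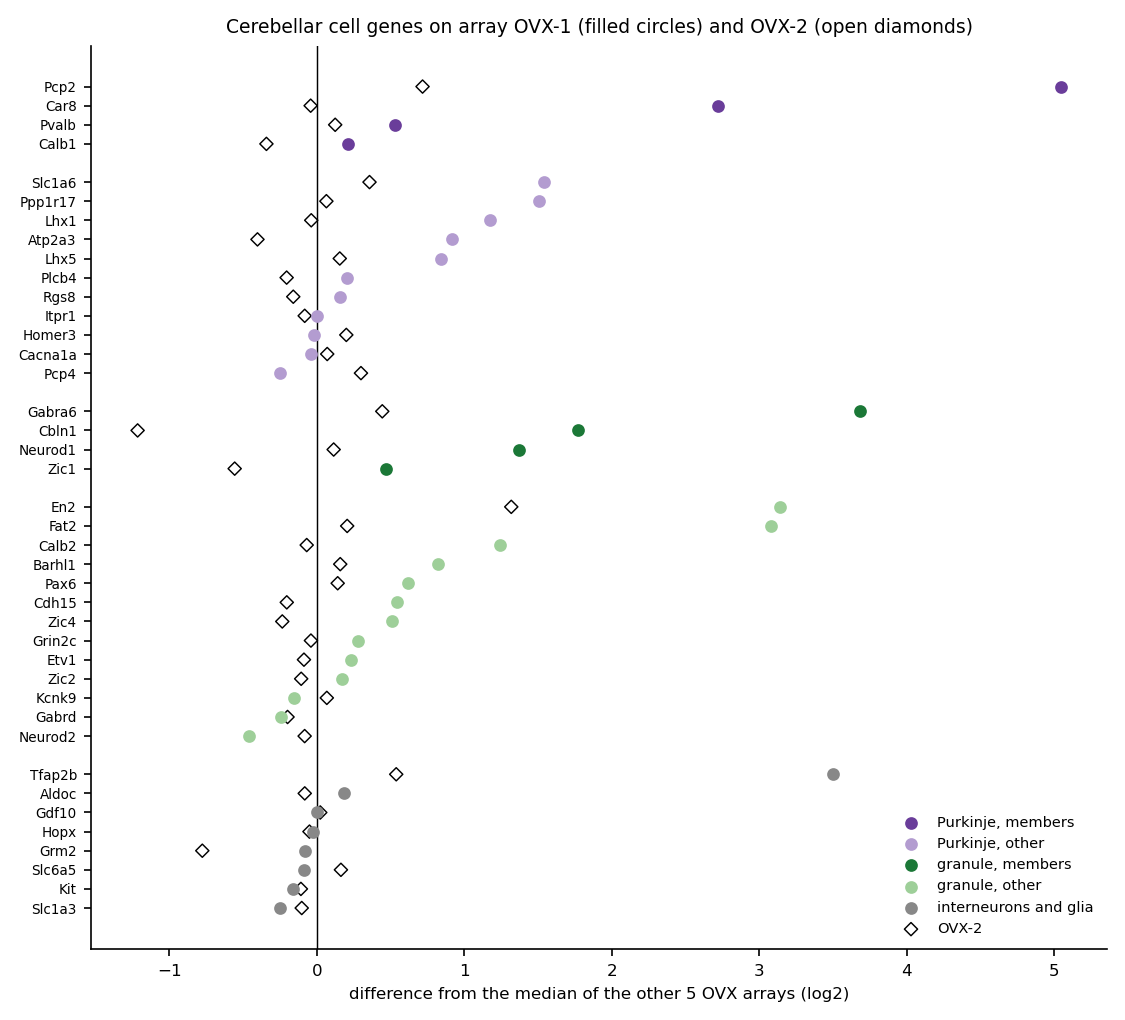
Difference from the median of the other 5 OVX arrays (log2) for each measured gene of the Purkinje, granule, and interneuron and glial lists, on OVX-1 as filled circles and on OVX-2 as open diamonds. Pcp2 (5.05), Gabra6 (3.69), Tfap2b (3.50), En2 (3.14) and Fat2 (3.08) lie farthest right on OVX-1, and En2 lies farthest right on OVX-2 (1.32).

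Markers of other regions were read on OVX-1 in the same way. None of 10 cortex and hippocampus genes, 6 pons and hindbrain genes, 9 dopamine neuron genes, 5 thalamus genes and 8 choroid plexus genes was 1 or more above the other OVX arrays. Their median differences were −0.30, 0.07, 0.01, −0.49 and −0.69. The part of neighbouring tissue in the OVX-1 values was not tested. With each gene taken at its probe set of largest excess among those that passed the filter, the largest excess of OVX-1 over the highest of the other OVX arrays was that of Pcp2 (4.33), followed by Gabra6 (3.24), Fat2 (2.87), Car8 (2.47), another probe set of Tfap2b (2.06), Mab21l1 (1.84) and En2 (1.83). The second Gabra6 probe set, which did not pass the filter, had an excess of 4.33. Further genes in none of the lists also had an excess of 1 or more. Among them were Irx3 (1.36), Tac1 (1.28), Unc13c (1.27), Ebf1 (1.12), Tal1 (1.11) and Gata3 (1.07).

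Likeness between genes over the 24 arrays was described by Pearson's r after each set was centred on its mean. To Gabra6 the most alike genes were Pcp2 (r = 0.99) and Fat2 (0.99), followed by Uncx (0.88), Rfx5 (0.86) and Pagr1 (0.86). To Pcp2 they were Gabra6, Fat2 (0.98), Uncx (0.88), Tmem132c (0.88) and En2 (0.88). These coefficients share the array OVX-1. Without it, r with Gabra6 was 0.63 for Pcp2 and 0.59 for Fat2, −0.20 for Uncx and −0.56 for Cbln1, and r of En2 with Pcp2 was 0.62. Car8 had r of 0.84 with Pcp2 over the 24 arrays and −0.09 without OVX-1. Calb1 and Zic1 had r of 0.22 and 0.24 with Gabra6 over the 24 arrays.

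Levels of the members in the 4 array sets are given next. Neurod1 lay at the 22.6th to 39.8th percentile of the array on OVX/ADX arrays and at the 82.9th to 94.9th on OVX arrays, against the 84.9th to 90.0th on Intact-named and the 34.6th to 63.7th on number-named arrays. Its levels on OVX and Intact-named arrays overlapped, and on both they lay above those of the remaining sets, which overlapped with each other. Within the sets, Neurod1 was highest on array 2541 among OVX/ADX arrays, at 6.27 against 5.14 to 5.39 on the other 5, and on 2543 (8.26) and 2539 (8.24) among number-named arrays, where the other 4 lay at 6.32 to 7.12. Cbln1 showed the opposite order, with the 90.4th to 92.1st percentile on OVX/ADX arrays and the 59.1st to 89.9th on OVX arrays, against the 46.2nd to 68.5th on Intact-named and the 89.2nd to 92.1st on number-named arrays. These are values of the first Cbln1 probe set, on which OVX/ADX and number-named arrays overlapped. On it, OVX-1 was the only array of the shared run to reach the range of the number-named arrays. On the second Cbln1 probe set, number-named arrays lay at the 86.4th to 89.6th percentile, above OVX/ADX arrays at the 80.4th to 83.9th. OVX-1 lay at the 80.6th there, below the number-named range.

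Zic1 had a median percentile of 50.4 on OVX/ADX arrays and 35.1 on OVX arrays, against 21.2 on Intact-named and 41.1 on number-named arrays, and ordered by level, OVX/ADX overlapped with number-named arrays and number-named with OVX arrays, whereas OVX and Intact-named arrays did not overlap. Pcp2 lay at the 32.5th to 36.2nd percentile on OVX/ADX arrays, and at the 22.4th to 33.9th on OVX arrays other than OVX-1, against the 19.6th to 25.4th on Intact-named and the 32.2nd to 36.3rd on number-named arrays. Calb1 was high throughout, between the 88.9th and the 98.2nd percentile on all 24 arrays, and Pvalb lay between the 73.5th and the 93.8th. In median percentile, Neurod1, Cbln1, Zic1, Pcp2, Calb1, Pvalb, Car8 and Gabra6 split the sets as the regional markers given above did. OVX and Intact-named arrays lay on one side, above the remaining sets in Neurod1 and Pvalb and below them in the other genes. The ranges of single arrays overlapped across this split in all of these genes except Neurod1 and Calb1. Median percentiles of Pvalb were 81.5 on OVX/ADX, 90.2 on OVX, 87.9 on Intact-named and 87.0 on number-named arrays. The part of the regional markers in these percentiles was not tested, and the sets were normalized in different runs.

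Ovariectomized, estradiol-primed rats were compared with intact rats within the run that OVX and Intact-named arrays share (limma, 6 arrays against 6). The mating label was a term. Surgery and priming came with ovariectomy in this comparison, and neither can be told apart from loss of the ovaries. Since the values of OVX-1 chose the members, each member is judged only without that array. Member values over all 12 arrays are a description. The titles of these arrays carry prefixes that also differ between OVX and Intact-named, and a processing order linked to them cannot be told apart from ovariectomy. Zic1 lay under the threshold over the 12 arrays, from which no call is read, and it did not pass the test without OVX-1. Zic1 was 6.38, 5.70, 5.91, 6.46, 6.25 and 5.62 on OVX-1 to OVX-6, and 5.10, 4.95, 5.22, 5.48, 5.04 and 5.01 on Intact-1 to Intact-6. Every OVX array lay above every Intact-named array, with means of 6.05 ± 0.36 on OVX and 5.13 ± 0.19 on Intact-named arrays (SD, n = 6 each). The difference was 0.92 (standard error 0.15, limma adjusted p = 0.0226), and without OVX-1 it was 0.86 (standard error 0.16, limma adjusted p = 0.0518). Over all 27035 probe sets, 388 were called (1.44%), 93 higher in OVX (0.344%) and 295 lower. Leaving out OVX-1, OVX-4, Intact-2 or Intact-3 took Zic1 over the threshold (adjusted p from 0.0518 to 0.0643, limma), with differences of 0.82 to 0.93 and no overlap of the groups without OVX-1.

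Regional markers were read beside Zic1, over all 12 arrays. Unlike Zic1, they were not judged without OVX-1, so their test results and its own rest on different arrays. OVX-1 was the highest OVX array in Slc17a6 and the lowest in Emx2 (7.10). All 5 measured thalamus genes had positive differences of 0.82 to 1.82, and 1 of them passed the test. This was Slc17a6, the vesicular glutamate transporter of thalamic neurons, at 11.69, 11.04, 10.92, 11.00, 11.20 and 9.50 on OVX-1 to OVX-6 and at 9.60, 9.47, 8.70, 10.02, 8.50 and 8.89 on Intact-1 to Intact-6 (difference 1.69, standard error 0.35, limma adjusted p = 0.0394). OVX-6 was lowest of its set in both Slc17a6 and Zic1, and Intact-4 was highest of its set in both. At the other ends the arrays differed. The highest OVX array was OVX-4 in Zic1 and OVX-1 in Slc17a6. The lowest Intact-named array was Intact-2 in Zic1 and Intact-5 in Slc17a6. The summed level of the list ranged from 10.79 to 13.17 on OVX arrays and from 10.44 to 11.67 on Intact-named arrays. Of the 10 cortex and hippocampus genes, Emx2, a homeobox gene of the developing cortex, was lower, with 7.46 ± 0.27 on OVX and 8.02 ± 0.17 on Intact-named arrays (SD, n = 6 each; difference −0.56, limma adjusted p = 0.0379). Of 8 measured choroid plexus genes none passed the test, with a median difference of 0.79 and a summed level of 10.67 to 14.76 on OVX arrays and 11.17 to 14.79 on Intact-named arrays. The part of these regional markers in the Zic1 difference was not tested.

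**Figure D4:**
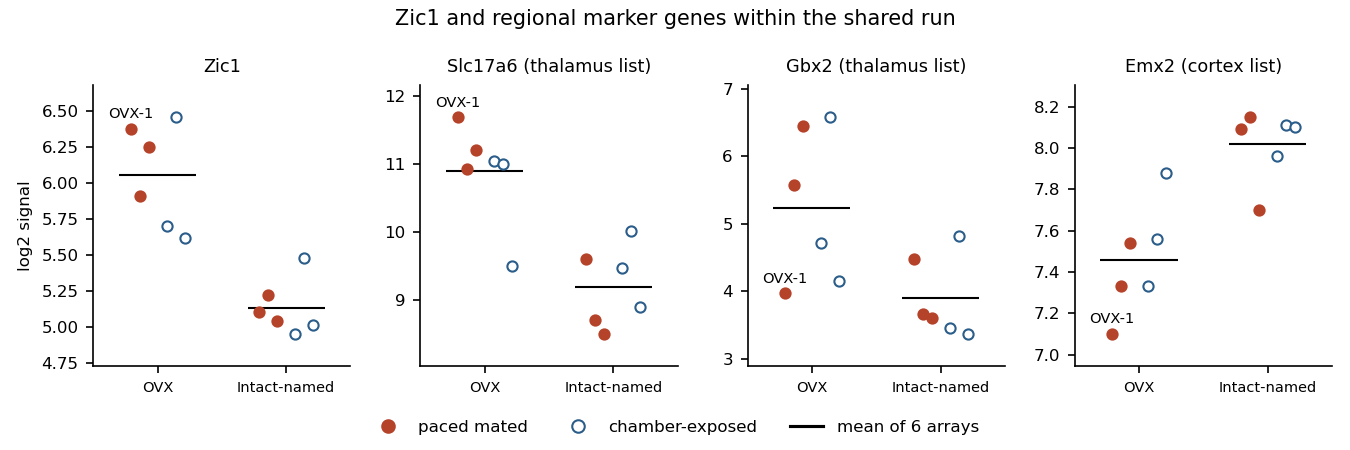
Log2 signal of Zic1, of the thalamus list genes Slc17a6 and Gbx2 and of the cortex list gene Emx2 on each OVX and Intact-named array, with paced mated arrays filled, chamber-exposed arrays open and bars for the mean of 6 arrays. Zic1 was 5.62 to 6.46 on OVX arrays and 4.95 to 5.48 on Intact-named arrays.

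On the first Gabra6 probe set each OVX array, at 4.48 or more, lay above each Intact-named array, at 4.45 or less, as did 0.803% of all probe sets tested. On the second the groups overlapped, with 4 of 6 OVX arrays above the highest Intact-named array. The difference on the first was 0.93 over all 12 arrays, and 0.32 without OVX-1 (95% interval 0.12 to 0.53, limma adjusted p = 0.12). Its signals other than on OVX-1 lay between the 10.7th and the 18.7th percentile of these arrays. Pcp2 was 6.26 ± 2.02 on OVX and 5.14 ± 0.14 on Intact-named arrays (SD, n = 6 each), a difference of 1.12 that became 0.30 without OVX-1 (limma adjusted p = 0.262). Car8 differed by 0.71, and by 0.27 without OVX-1 (limma adjusted p = 0.414). In these 3 genes the difference without OVX-1 was smaller than over all arrays by more than 1.5 times.

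Cbln1 differed by 1.01 between OVX and Intact-named arrays, and by 0.74 without OVX-1 (95% interval 0.10 to 1.39, limma adjusted p = 0.206). Pvalb, Calb1 and Neurod1 differed by 0.28, −0.25 and −0.06 over all 12 arrays. Without OVX-1 the differences were 0.19, −0.31 and −0.30 (limma adjusted p = 0.405, 0.261 and 0.172), and the 95% interval of Neurod1 was −0.53 to −0.07. Of the other cerebellar genes, none of 11 Purkinje, 13 granule and 8 interneuron and glial genes passed the test, with median differences of 0.20, 0.23 and 0.08 beside −0.0013 over all probe sets.

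**Figure D5:**
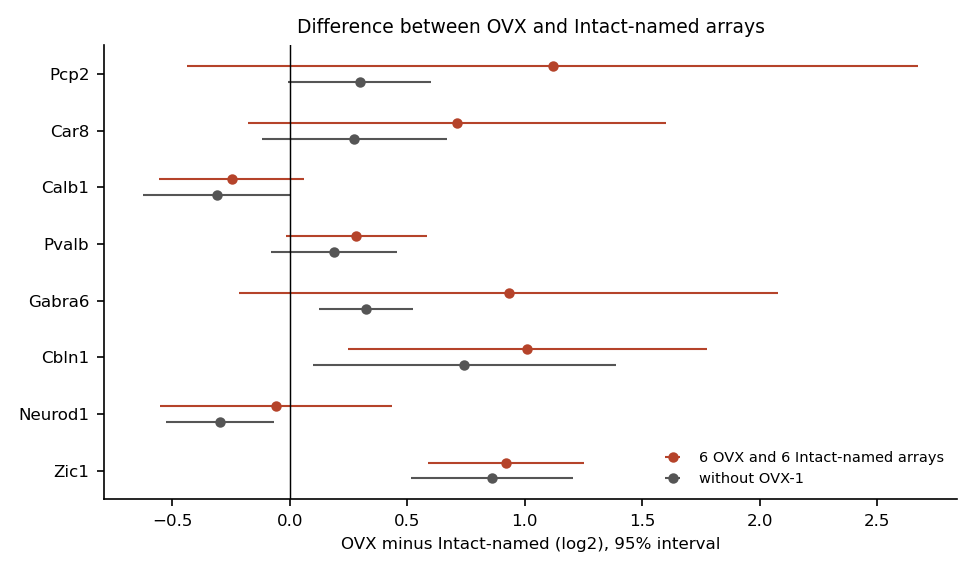
Difference between OVX and Intact-named arrays in log2 units with 95% intervals from limma, for the 8 members, over 6 against 6 arrays (red) and without OVX-1 (grey). The red intervals include OVX-1, whose values chose the members, and are a description with no test. The differences of Pcp2 and Gabra6 shrink from 1.12 and 0.93 to 0.30 and 0.32, and that of Zic1 stays near 0.9 (0.92 and 0.86).

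Paced mating was compared with chamber exposure in each gland group. In OVX rats, no member and no probe set passed the test (0% called of 27035; 654 had an unadjusted p under 0.05 with limma and 707 with a plain test per probe set, without limma's pooling of variances). Pcp2 was 10.35, 5.25 and 5.30 on the paced OVX arrays and 6.02, 5.25 and 5.39 on the chamber-exposed OVX arrays, and the difference of 1.41 turned to −0.28 without OVX-1. The Gabra6 difference of 1.05 turned to −0.17, and that of Neurod1, 0.25, to −0.23. Car8 was 10.32, 7.62 and 7.85 on paced arrays and 7.58, 7.60 and 6.81 on chamber-exposed arrays, with no overlap. Of all probe sets, 2.79% lay in this way wholly higher on paced OVX arrays, and nothing is read from the Car8 order, since the value of the paced array OVX-1 chose the gene. The Car8 difference was 1.27, or 0.41 without OVX-1 (95% interval −0.21 to 1.02).

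In OVX/ADX rats the member differences between paced and chamber-exposed arrays lay between −0.28 (Pvalb) and 0.31 (Neurod1). None passed the test, as none of all probe sets did (0%; 667 at an unadjusted p under 0.05 with limma and 754 with the plain test). The Neurod1 value rested on the paced array 2541, and was −0.03 without it. In intact rats, with the array set as a term, the differences lay between −0.29 (Neurod1) and 0.28 (Car8), with the lowest limma adjusted p of 0.678 for Car8. No probe set was called (0%; 2086 at an unadjusted p under 0.05 with limma and 2031 with the plain test). The widest 95% interval was that of Neurod1, −0.93 to 0.36, and the narrowest that of Gabra6, −0.11 to 0.17.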

How the data were processed

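The authors deposited log2 signals of Affymetrix rat expression arrays, made with RMA in Affymetrix Expression Console 1.4 per the submitters' processing notes, whereas the study's methods name GCRMA in GeneSpring. RMA pulls low signals together, so folds of dim genes are understated. Signals were used as deposited, and 57 control probe sets were left out. Probe sets carry 1 gene symbol in 20832 cases, several in 436 and none in 9831. A gene with 2 probe sets is represented by the one with the higher mean. Comparisons used limma 3.58.1 in R 4.3.3 with Benjamini-Hochberg adjustment over 27035 probe sets and a threshold of 0.05, and the code was tested on simulated data. The number of arrays limits the precision. The labels do not say that each array is a separate animal, so p-values measure the spread between arrays. Members and gene lists were chosen with earlier results of these data known. Named genes are all members, the called genes of each list or else up to 4 with the largest excess on OVX-1, and the 5 genes most like Gabra6 and Pcp2. Chosen after their values were seen were list genes with small differences, Mab21l1, Th, Gbx2 and Tfap2b's second probe set. The same holds for Irx3, Tac1, Unc13c, Ebf1, Tal1 and Gata3. Alternatives covered the filter, normalization, moderation, array weights, a replicate block, each intact set alone and leaving out each array. Leaving out OVX-1 with OVX-2 was chosen after seeing the data.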

Additional observations from a re-analysis of the deposited data

Results flagged for a closer look

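In 8 of 40 combinations of a member probe set and an array set of 6, the highest or lowest array was separated from its nearest neighbour by more than 0.625 of the range of the set. Chance flags about 1 in 20 groups, and 5.86% to 7.71% of all probe sets did so in the 4 sets. These shares cannot be set against the 8, because 4 of them are the values of OVX-1 on which the members were selected: Pcp2 (ratio 0.849), Gabra6 (0.877), Car8 (0.704) and the second probe set of Cbln1 (0.658). Array Intact-4 was the lowest of its set in Car8, at 6.56 with 7.25 as the nearest (0.74), and in Pvalb, at 9.63 with 10.02 as the nearest (0.762). Array 2541 was the highest OVX/ADX array in Neurod1 (0.78). Array 2543 was the highest number-named array in Calb1, at 11.97 with 11.74 as the nearest (0.733).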

How the results depend on the processing

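The count of probe sets called between OVX and Intact-named arrays, 388, became 84 with a plain per-probe-set test, 719 with array weights, and 34 without OVX-1 and OVX-2; leaving out each array in turn gave 0 to 443, with 0 without OVX-4, 27 without Intact-2, 33 without Intact-3, 88 without OVX-1, 104 without Intact-1, 137 without OVX-5, 146 without OVX-3 and 253 without OVX-2. With the number in the titles as a replicate block it was 375 and the Zic1 adjusted p 0.0273 (limma). Whether the numbers pair the arrays is not known. Deviations of same-numbered arrays correlated at 0.018 to 0.314, and the highest correlation with another number was −0.092 to 0.306. The block moved no member across the threshold. Zic1 kept its direction under every alternative, with adjusted p of 0.0176 to 0.0643 (limma), 0.0625 with the plain test and 0.0594 without OVX-1 and OVX-2. For mating in intact rats, 12 probe sets were called in the number-named set alone and 4 in the Intact-named set alone, against 0, and 0 to 1 when each array was left out. The Gabra6 excess on OVX-1 was 3.49 after quantile normalization and 6.15 with the other probe set.

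Some member differences turned sign, among them those of Pcp2 and Gabra6 for mating in OVX rats when OVX-1 was left out. For mating in OVX/ADX rats, array weights gave Gabra6 0.0199, Cbln1 0.016 and Zic1 0.078. For mating in intact rats, the number-named set alone gave Pcp2 −0.0045 and Calb1 0.095, and the Intact-named set alone Pvalb 0.103 and Gabra6 −0.0503. Leaving out each array gave, between OVX and Intact-named arrays, −0.298 to 0.0399 for Neurod1; for mating in OVX rats, −0.277 to 2.27 for Pcp2, −0.138 to 0.136 for Calb1, −0.175 to 1.67 for Gabra6 and −0.235 to 0.525 for Neurod1; in OVX/ADX rats, −0.172 to 0.266 for Car8, −0.0774 to 0.0404 for Cbln1, −0.031 to 0.518 for Neurod1 and −0.204 to 0.157 for Zic1; and in intact rats, −0.114 to 0.082 for Pvalb, −0.103 to 0.257 for Cbln1 and −0.0896 to 0.0437 for Zic1. The cause was not tested. Gabra6 and its second probe set lie near the lowest signals of most arrays, which bounds what a difference there can show.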
